A study of Arabidopsis thaliana x Arabidopsis arenosa with 4 samples.

Results

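Hybrid siliques, the young fruits with their seeds, from a cross of tetraploid Arabidopsis thaliana ecotype Ler with tetraploid Arabidopsis arenosa are described here through the RNA of both parental alleles. Every transcript of this 1 library with an A. arenosa and an A. thaliana value was taken, and 1 transcript was kept per locus, the one with the highest total. This left 15935 loci of the 16608 that had allele values in any of the 3 F1 crosses of the series. The other F1 crosses used C24 or Col-0 as the A. thaliana parent (15479 and 15580 loci) and stand beside the Ler cross for comparison as C24 hybrids and Col hybrids, while the allotetraploid Allo733 (F8) was not used here. All F1 plants had tetraploid parents, with A. arenosa line CS3901 on the other side, and siliques were taken 4 days after hand pollination of emasculated flowers. Each cross is 1 library with no replicate, so no difference below has a test, an SD or a p-value, and ecotype and library cannot be told apart. The series asks how disturbed expression of paternal genes relates to the abortion of hybrid seeds. The labels do not state which species gave the pollen, and A. arenosa is taken as the pollen parent only because it is named last.

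In an F1 hybrid both parental copies of a gene sit in 1 nucleus, so the balance of their transcripts compares the alleles within shared cells. A silique is a mixture, though. Fruit wall, septum and seed coat are tissue of the seed parent and carry no paternal genome, embryo and endosperm carry both genomes, and pollen tubes that grew through the pistil carry the pollen parent's genome alone. In such bulk tissue fewer cells with a given genome and less RNA per cell cannot be told apart. Genes of fruit identity checked the tissue label, since 7 of 9 were listed, among them the ovule gene STK and the valve margin gene SHP1. Their median share was 3.86%, against 65.7% over the pollen markers listed. Of 7 seed coat markers 3 were listed (TT8, TTG2 and AHA10), with a median share of 3.04% and a range from 0 to 31.4%. The other crosses differed. Seed coat markers listed there had medians of 26.5% in C24 hybrids and 31.4% in Col hybrids, and fruit markers 3.42% and 10.8%. None of 6 endosperm markers was listed and 1 of 6 embryo markers was (WOX9, an embryo patterning gene, at 7.18 RPKM), against 8 of 12 pollen markers and 0 of 4 root markers. The tables list only transcripts with a total of at least 2 RPKM (reads scaled to transcript length and library size), so members of a gene class below that level were not analysed here. Below that level of A. thaliana RNA, a locus was listed only where its A. arenosa allele made up the rest. High shares are thus favoured among such loci, in each class described below.

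Nearly all RNA carried the A. thaliana allele. Summed over loci, the library held 30690 RPKM of A. arenosa and 626111 RPKM of A. thaliana, a share of 4.67%. At the median locus the A. arenosa share, its RPKM as a percentage of the locus total, was 3.87%, with quartiles of 1.75% and 7.29%. The median A. arenosa level was 0.505 RPKM and the median A. thaliana level 11.9 RPKM. The C24 cross had a median share of 5.45% and the Col cross one of 4.92%, so shares are read below against the median of their own cross.

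A locus was called above the median at 2-fold or more (7.74% or higher in the Ler cross) and below it at 0.5 times or less (1.94% or lower). By this rule of size 3652 loci (22.9%) lay above and 4307 (27.0%) below. In the C24 cross these percentages were 21.3 and 26.3, and in the Col cross 24.9 and 27.8. Among the loci below were 1828 (11.5% of all loci) with less than 0.01 RPKM of A. arenosa, of which 604 were listed at exactly 0. Such a value can be a failed estimate, so these loci are described as listed near 0 and not as silent.

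**Figure D1:**
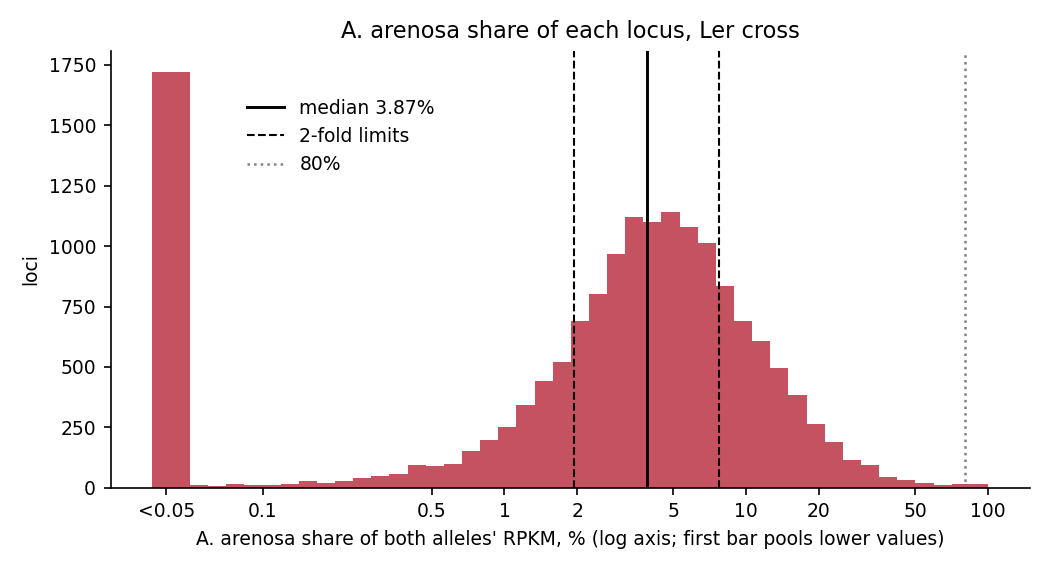
Number of loci of the Ler cross (vertical axis) by A. arenosa share in percent (horizontal log axis), with values under 0.05% pooled in the first bar. That bar holds the whole decile of lowest shares (up to 0.00474%), and beyond it a broad peak lies around the median of 3.87% (solid line). Dashed lines mark the 2-fold limits, and 21 loci lie at or beyond the dotted 80% line.

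**Figure D2:**
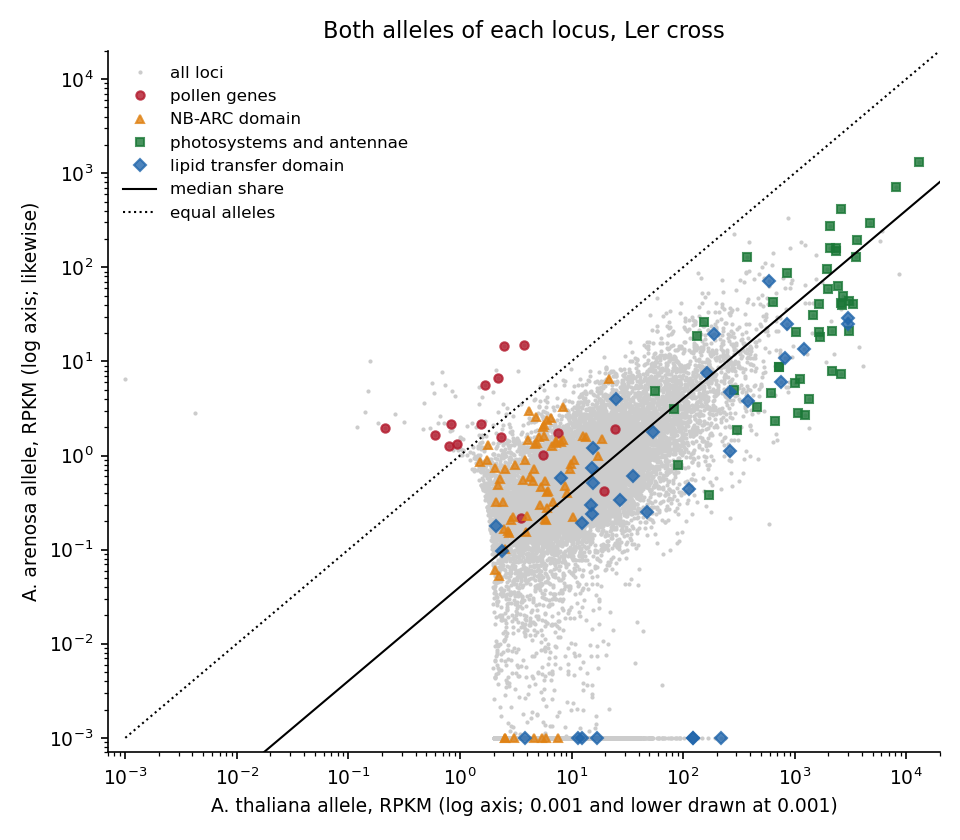
A. arenosa RPKM (vertical) against A. thaliana RPKM (horizontal) of each locus in the Ler cross, both on log axes with 0.001 and lower drawn at 0.001. Pollen genes lie mostly above the line of equal alleles at low levels, most NB-ARC resistance genes lie above the line of the median share, and photosystem and lipid transfer genes lie mostly below that line.

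Gene classes departed from the median in both directions. A class median was read as departing at 1.5-fold or more above, or at 1/1.5 or less of, the library median. Among 59 gene lists with at least 3 listed loci, 7 departed upward and 17 downward, and of these 6 and 12 lay on the same side of the median in both other crosses. Among 468 protein domain classes of at least 15 loci, 34 departed upward and 46 downward, with 29 and 39 on the same side in both other crosses. Among 34 annotated cell locations 1 departed upward and 5 downward, and all of them lay on the same side in both other crosses. The crosses share the A. arenosa line and the annotation, so a like value in another cross is a second library and not an independent test.

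**Figure D3:**
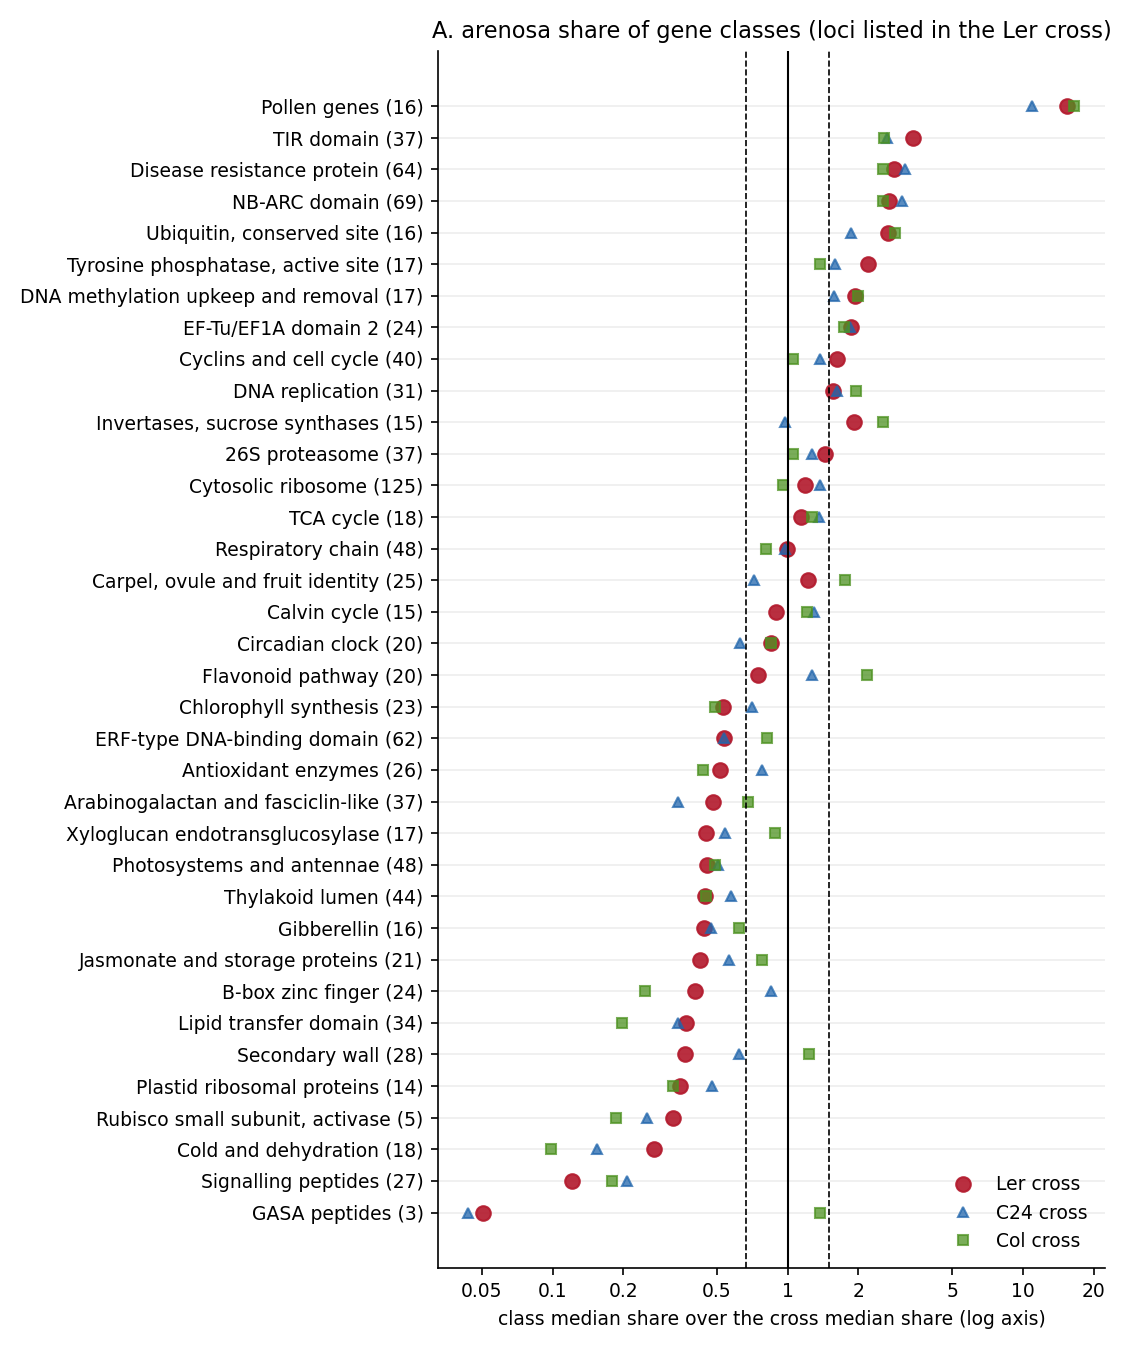
Median A. arenosa share of each gene class divided by the median share of its own cross (log axis), for the Ler, C24 and Col crosses, with the number of loci listed in the Ler cross in brackets. Dashed lines mark the 1.5-fold limits. Pollen and resistance gene classes stand to the right in all 3 crosses, plastid, cold and lipid transfer classes stand to the left, and secondary wall and GASA genes stand to the left in the Ler cross and to the right of the median in the Col cross.

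The loci with the most one-sided A. arenosa expression were few and low. At least 80% of the RPKM came from A. arenosa at 21 of 15935 loci (0.132%), with totals of 2.14 to 18.6 RPKM and a median total of 5.04 RPKM. All but sks13 and AGP23 had under 2 RPKM of A. thaliana, so they were listed only because of their A. arenosa allele. The listing limit on the total thus favours such loci. Among the 21 loci, 7 encode enzymes that act on pectin or their inhibitors by product name. Pectin is the wall polymer whose methylation and cleavage set the extensibility of a growing pollen tube. Of the 21 loci, 3 belong to the pollen list described next.

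Highest in total was sks13, a gene like multicopper oxidases, with 14.9 RPKM of A. arenosa and 3.71 RPKM of A. thaliana (80.1%). AGP23, which encodes a small arabinogalactan protein of pollen, had 14.7 RPKM of A. arenosa and 2.48 RPKM of A. thaliana (85.5%). At AT5G50030, an invertase or pectin methylesterase inhibitor gene, 6.52 RPKM of A. arenosa stood beside 2.56e-06 RPKM of A. thaliana. Thus the A. thaliana allele was near 0 there, while sks13 and AGP23 kept measurable RNA of both alleles.

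Other pectin-related loci lay in the same range. The inhibitor gene AT1G10770 had 2.90 RPKM of A. arenosa and 0.1397 RPKM of A. thaliana, the polygalacturonase gene PGA4 had 4.60 and 0.585 RPKM, and the pectate lyase gene AT3G01270 had 4.32 and 0.895 RPKM, A. arenosa first in each pair. VGDH2, a relative of the pectin methylesterase VANGUARD1, had 1.98 RPKM of A. arenosa and 0.215 RPKM of A. thaliana. BGAL11, a beta-galactosidase gene, had a share of 87.8% and FLA3, a fasciclin-like arabinogalactan protein gene, one of 80.03%. Just below the limit stood AT4G18596, of the Ole e 1 pollen allergen family, with 79.4%, and AT4G02250, a further pectin methylesterase inhibitor gene, with 78.8%.

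Most of these loci were also high in the other crosses. In the C24 cross 16 were listed, all 16 lay above the 2-fold limit of that cross and 9 reached 80%. In the Col cross 20 were listed, 19 lay above the limit and 13 reached 80%. A few went apart. AT2G19340, an oligosaccharyltransferase or magnesium transporter family gene, had 98.5% in the Ler cross, 12.2% in C24 hybrids and 38.4% in Col hybrids. The histone gene AT1G13370 had 91.2% in the Ler cross, 90.4% in C24 hybrids and 6.08% in Col hybrids. Histone genes have near-identical copies between which reads can be split, so that value is uncertain.

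**Figure D4:**
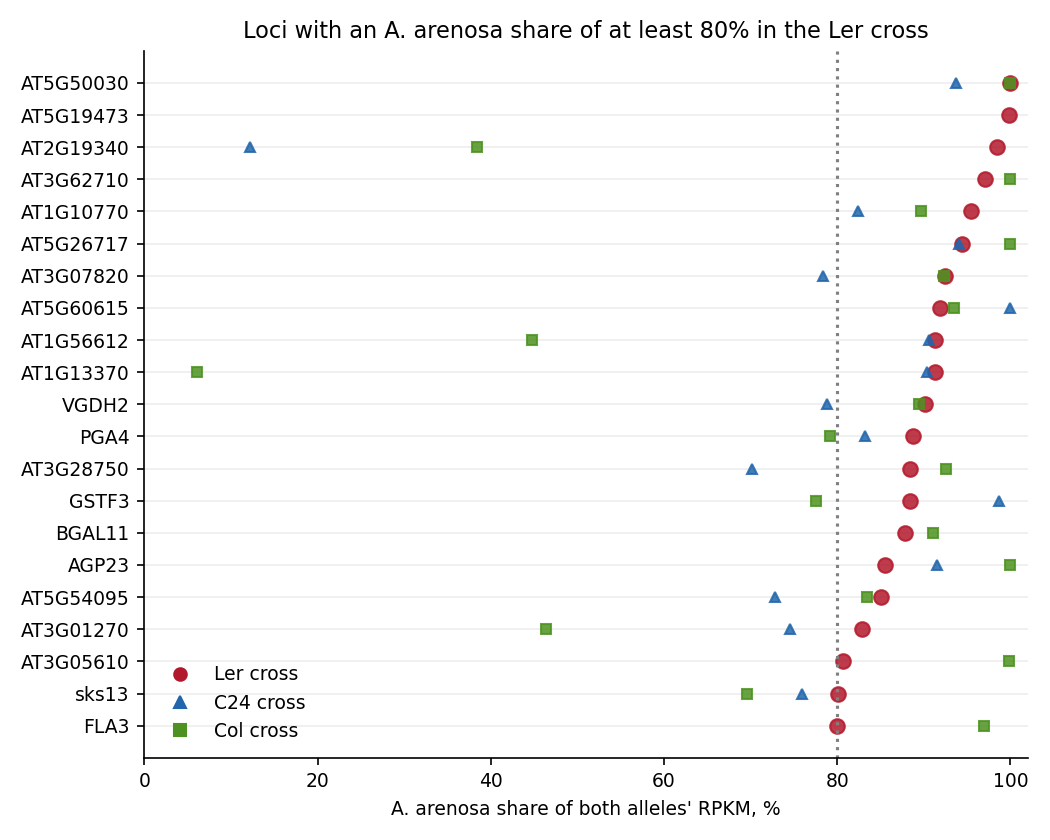
A. arenosa share in percent of the 21 loci that reach 80% (dotted line) in the Ler cross, with the share of the same locus in the C24 and Col crosses where it was listed. Most loci are high in every cross where they were listed, while AT2G19340 is at 12.2% in the C24 cross and AT1G13370 at 6.08% in the Col cross.

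Pollen genes were the gene list furthest above the median. Of 52 genes on the list 16 were listed in the Ler cross, with a median share of 59.8%. Of the 16, 13 lay above the 2-fold limit and 0 below it, against 22.9% and 27.0% of all loci. Pollen genes with little A. thaliana RNA reached the listing limit only through A. arenosa, such as VGDH2 (1.98 RPKM beside 0.215 RPKM of A. thaliana). These counts and the class median thus rest in part on the listing limit. The median was 59.7% in C24 hybrids and 81.6% in Col hybrids. The members ran between 2.07% and 90.2%. VGD1, the pectin methylesterase VANGUARD1 of pollen tubes, had 6.74 RPKM of A. arenosa and 2.20 RPKM of A. thaliana (75.4%), and the adjacent copy VGDH1 had 72.2%, although reads can be split between the pair. BCP1, a pollen surface protein gene, had 76.9%, and AGP11, an arabinogalactan protein gene of pollen, had 73.4%. These 4 genes fall outside the rule for named genes and were chosen after their values were seen.

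At the other end stood PIRL9, a leucine-rich repeat protein gene of microspore development, which had 0.415 RPKM of A. arenosa and 19.6 RPKM of A. thaliana (2.07%). SEC8, a subunit of the exocyst that tethers secretory vesicles, had 1.92 RPKM of A. arenosa and 24.8 RPKM of A. thaliana (7.22%), and the receptor kinase gene ANX1 had a share of 5.90%. SEC8 and PIRL9 had the highest totals of the list, at 26.7 and 20.04 RPKM. Over the 8 listed pollen markers, the summed level was 43.1 RPKM for A. arenosa and 27.1 RPKM for A. thaliana. Pollen tube RNA left in the pistil and expression in hybrid tissue cannot be told apart in these values.

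Intracellular immune receptor genes formed another large class above the median. These receptors detect pathogen effectors through leucine-rich repeats, switch on through a nucleotide-binding NB-ARC domain and signal, in one branch, through a TIR domain. The 69 listed loci with an NB-ARC domain had a median share of 10.4%, with 38 above the 2-fold limit (55.1%, against 22.9% of all loci) and 7 below it. The 37 TIR loci, 36 of which also carry NB-ARC, had a median of 13.3% (22 above and 3 below). Counted once each, 71 loci of the TIR, NB-ARC and disease resistance classes had a median share of 10.6%, with 40 above and 7 below. Both other crosses had the class above their median too, with NB-ARC medians of 16.6% in C24 hybrids and 12.5% in Col hybrids.

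AT1G58602, the NB-ARC gene with the highest total, had 6.50 RPKM of A. arenosa and 21.7 RPKM of A. thaliana (23.05%). AT1G61180 had 1.31 RPKM of A. arenosa and 1.77 RPKM of A. thaliana (42.5%), the highest share of the class, and AT1G69550 had 41.9%. AT1G61180 thus reached the listing limit only through A. arenosa, and the class counts rest in part on that limit. The downy mildew resistance gene RPP1 had 1.56 RPKM of A. arenosa and 13.4 RPKM of A. thaliana (10.4%). Not every member was high. ADR1-L2, a helper receptor gene on which other receptors rely, had 7.42%, just under the 2-fold limit, and the A. arenosa allele was listed at 0 for AT1G72910, AT3G04210 and AT5G66900.

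Low level moved with this class. The median total of the resistance loci was 6.002 RPKM. The NB-ARC median share of 10.4% stood beside 4.51% over all loci of the decile of total RPKM that holds this level. With each locus set against the median of its own decile of total, the NB-ARC median was 2.048 times, against 2.693 times the library median. Resistance genes occur in clusters of near-identical copies between which reads can be split, so the value of a single member is uncertain.

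Smaller classes lay above the median as well. The 17 loci with the active site of protein tyrosine phosphatases, enzymes that remove phosphate from signalling proteins, had a median of 8.52%, with 10 above the 2-fold limit and 1 below. PFA-DSP3 (35.5%) and PFA-DSP1 (23.03%), 2 atypical phosphatase genes, had the highest shares. The class median was 8.65% in C24 hybrids and 6.78% in Col hybrids, which is 1.59 times and 1.38 times the median of each cross.

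The 16 loci with the conserved site of ubiquitin, the small protein tag for degradation, had a median of 10.3% (10 above and 0 below). They include UBP6, a ubiquitin protease gene, at 2.90%. UBQ6 had 52.9 RPKM of A. arenosa and 168 RPKM of A. thaliana (23.97%), whereas UBQ5, the most abundant member, had 22.5 RPKM of A. arenosa and 559 RPKM of A. thaliana (3.87%), a share equal to the median to 3 digits. The 24 loci with domain 2 of the elongation factors EF-Tu and EF1A, which bring aminoacyl-tRNA to the ribosome, had a median of 7.17% (11 above and 0 below). RABE1b, the plastid EF-Tu gene, had 141 RPKM of A. arenosa and 636 RPKM of A. thaliana (18.1%). With a pseudocount of 1 the ubiquitin class was 1.025 times and the elongation factor class 0.968 times the library median, so both departures depend on that setting. Both families hold near-identical coding sequences between which reads can be split.

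Genes of DNA copying and DNA methylation lay moderately above the median. The 31 listed of 36 DNA replication genes had a median of 6.04% (12 above and 1 below), with 8.85% in C24 hybrids and 9.62% in Col hybrids. RNR1, the large subunit of ribonucleotide reductase, had 14.99%, and MCM9, a helicase gene, had 42.1% at a total of 2.37 RPKM, close to the lowest listed level. TSO2, the reductase's small subunit, had the highest total of the list (45.6 RPKM) and a share of 2.94%. The 17 listed genes of methylation upkeep and removal had a median of 7.48% (8 above and 3 below). VIM5, whose relatives bind hemimethylated DNA during replication, had 1.67 RPKM of A. arenosa and 1.57 RPKM of A. thaliana (51.5%). With under 2 RPKM of A. thaliana, VIM5 was listed only because of its A. arenosa allele. The demethylase gene DML1 had 0.313 RPKM of A. arenosa and 27.0 RPKM of A. thaliana (1.15%). Both lists fell within the 1.5-fold limits under some settings, replication at 1.38 times the library median within deciles of total and methylation at 1.45 times among loci of at least 10 RPKM.

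Cyclins and other cell cycle regulators spread in both directions. Their 40 listed genes had a median of 6.27%, with 16 above and 10 below. The spindle checkpoint gene MAD2 had 27.9% and the mitotic cyclin gene CYCB1;1 had 18.6%, while the A. arenosa allele of the G1 cyclin gene CYCD3;1 was listed at 0. Invertases and sucrose synthases, which split sucrose for growing sink tissue, had a median of 7.43% over 15 loci (7 above and 4 below). SUS1 had 8.06 RPKM of A. arenosa and 50.4 RPKM of A. thaliana (13.8%), and the cell wall invertase gene cwINV4 was listed near 0 for A. arenosa in the Ler cross, against 5.04% in C24 hybrids and 56.9% in Col hybrids. The 17 listed brassinosteroid genes had a median of 6.005% (6 above and 4 below), with 20.8% at CYP90D1, a P450 gene of synthesis of the hormone, and a value listed near 0 at DWF4, another P450 gene of that pathway. Among loci of at least 10 RPKM cyclins were at 1.11 times and invertases at 0.581 times the library median, and among loci of at least 5 RPKM brassinosteroid genes were at 1.02 times, so these departures depend on the level limit.

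Photosynthesis genes lay below the median as a class, although some of the most abundant ones did not. The nucleus encodes the antenna proteins that collect light, most peripheral photosystem subunits, the small subunit of the CO2-fixing enzyme Rubisco and the enzymes of chlorophyll synthesis. Of 48 listed photosystem and antenna genes 25 lay below the 2-fold limit (52.1%, against 27.0% of all loci) and 9 above, with a median share of 1.76%. Their summed share was 4.80%, because the antenna genes with the highest levels carried more A. arenosa RNA than the typical member.

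CAB1, an antenna protein gene of photosystem II and the most abundant locus of the library, had 1310 RPKM of A. arenosa and 13165 RPKM of A. thaliana (9.05%). CAB3 had 712 RPKM of A. arenosa and 8127 RPKM of A. thaliana (8.06%). LHCB2.3, a further antenna gene of photosystem II, had 2.68 RPKM of A. arenosa and 1233 RPKM of A. thaliana (0.217%), whereas LHCB2.1 had a share of 13.9%. So antenna genes lay on both sides of the median by more than 2-fold. CAB genes are near-identical copies, and how reads were divided between them is not given in the sources used here. Whether reads were likewise split between LHCB2.1 and LHCB2.3 was not tested, so the value of each is uncertain.

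Some other antenna and photosystem genes were high. LHCB4.2, a minor antenna gene, had 127 RPKM of A. arenosa and 375 RPKM of A. thaliana (25.3%), with 24.9% in C24 hybrids and 33.03% in Col hybrids. FNR1, the reductase that passes electrons to NADP, had 14.5%. PSB28, a photosystem II assembly protein gene, had a share of 0.225%.

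Rubisco and plastid ribosomal protein genes lay on the same low side. All 5 genes of the Rubisco small subunit and its activase were below the median, with RBCS1A at 0.965%, RBCS1B at 1.26%, RBCS3B at 0.380%, RBCS2B at 3.20% and RCA at 2.76%. At 8652 RPKM of A. thaliana, RBCS1A had 84.3 RPKM of A. arenosa. The small subunit genes are close copies, so the split between them is uncertain. Of 14 plastid ribosomal protein genes 9 lay below the limit and 1 above (PSRP6, 14.5%), with a median of 1.34%.

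In the tetrapyrrole pathway to chlorophyll, the 23 listed genes had a median of 2.05% (2 above and 11 below). CRD1, a cyclase of the chlorophyll ring, had 4.73 RPKM of A. arenosa and 865 RPKM of A. thaliana (0.544%), and the methyltransferase gene CHLM had 0.272%. HEMA1, which encodes the reductase of the first committed step, stood apart with 29.0 RPKM of A. arenosa and 104 RPKM of A. thaliana (21.8%), and with 21.06% in C24 hybrids and 31.9% in Col hybrids. Proteins of the thylakoid lumen had a median of 1.72% over 44 loci (3 above and 27 below). The plastocyanin gene DRT112 had 7.35 RPKM of A. arenosa and 2626 RPKM of A. thaliana (0.279%), while FKBP13, a lumenal prolyl isomerase gene, had 24.5%.

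The low class medians of photosystems, Rubisco, plastid ribosome and lumen held in both other crosses. Photosystem genes had medians of 2.75% in C24 hybrids and 2.41% in Col hybrids, and plastid ribosomal proteins 2.60% and 1.60%. Calvin cycle enzymes downstream of Rubisco did not share the low value, with a median of 3.45% over 15 loci (4 above and 3 below). SBPASE, which regenerates the CO2 acceptor, had 85.2 RPKM of A. arenosa and 481 RPKM of A. thaliana (15.05%), and GAPA had 20.04 RPKM of A. arenosa and 1443 RPKM of A. thaliana (1.37%).

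Lipid transfer protein genes were a further low class. Lipid transfer proteins are small secreted proteins that carry lipids to surfaces. Of 34 loci with their domain 21 lay below the limit and 3 above, and 7 were listed near 0, for a median share of 1.43%. LTP6 had 24.99 RPKM of A. arenosa and 3033 RPKM of A. thaliana (0.817%), and LTP4 had 29.0 RPKM of A. arenosa and 3007 RPKM of A. thaliana (0.954%). LTPG1, which exports cuticular wax, and DIR1, which acts in systemic resistance, had their A. arenosa allele listed at 0 beside 220 and 124 RPKM of A. thaliana. AT2G10940, another member, reached 10.97% with 71.9 RPKM of A. arenosa and 583 RPKM of A. thaliana.

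Classes of the cuticle and wall lay on different sides of the median. The 18 listed wax synthesis genes had a median of 2.08% (3 above and 7 below) and the 14 cutin synthesis genes one of 2.14% (4 above and 6 below). Expansins, which loosen walls, had 7.10% over 20 loci (10 above and 5 below), but 0.893 times the library median among loci of at least 5 RPKM. The 11 listed genes of primary wall cellulose had 5.19% (3 above and 3 below), within the 1.5-fold limits. CESA6, a cellulose synthase gene, had 13.6 RPKM of A. arenosa and 73.6 RPKM of A. thaliana (15.6%), and ABCG11, an exporter gene of cuticular lipids, had 20.8 and 81.8 RPKM (20.3%). Arabinogalactan and fasciclin-like proteins, glycoproteins of the cell surface, had a median of 1.86% over 37 loci, with 19 below and 7 above. The class spread widely, since AGP9 had 11.2 RPKM of A. arenosa and 943 RPKM of A. thaliana (1.17%) while the pollen members AGP23 and FLA3 had 85.5% and 80.03%. Xyloglucan endotransglucosylases, which cut and rejoin wall hemicellulose, had a median of 1.74% over 17 loci (10 below and 4 above). XTH6 had 0.966% and XTH24 had 1.84%, at totals of 174.5 and 189 RPKM, and XTH10 had 29.8% at a total of 3.36 RPKM.

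Genes of secondary walls had 15 of 28 loci below the limit and 5 above, with 11 listed near 0 and a median of 1.41%. The xylem peptidase gene XCP2, at 51.1 RPKM of A. thaliana, was listed at 0 for A. arenosa, and the laccase gene LAC11 had 4.52 RPKM of A. arenosa and 13.4 RPKM of A. thaliana (25.2%). The class had a median of 3.39% in C24 hybrids and 6.09% in Col hybrids, where it was above that cross's median. With loci listed near 0 left out, the class median of the Ler cross was 1.28 times the library median, so its low value rests on those loci.

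Hormone and stress genes were low in several classes. Jasmonate is the wound and fertility hormone, and vegetative storage proteins accumulate under its control. The 21 listed genes had a median of 1.64% (12 below and 2 above). LOX2, the plastid lipoxygenase that starts jasmonate synthesis, had 9.96 RPKM of A. arenosa and 1894 RPKM of A. thaliana (0.523%). VSP1 had 75.6 RPKM of A. arenosa and 1557 RPKM of A. thaliana (4.63%), and ACX1, an acyl-CoA oxidase gene, reached 29.0%.

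Gibberellin genes had a median of 1.704% over 16 loci (8 below and 2 above). RGL1 and RGA1, DELLA repressors of the gibberellin response, had 0.508% and 1.96% at totals of 124 and 67.3 RPKM, and CYP88A3, a P450 gene of synthesis of the hormone, had 9.73%. In C24 hybrids RGL1 had 14.2%, above the 2-fold limit of that cross, and RGA1 had 4.54%. In Col hybrids they had 0.952% and 0.522%. All 3 listed GASA genes, which encode small peptides under gibberellin control, were far below the limit. GASA4 had 0.918 RPKM of A. arenosa and 467 RPKM of A. thaliana (0.196%), GASA1 had 0.656 and 343 RPKM (0.191%) and GASA6 had 0.869 and 156 RPKM (0.552%), A. arenosa first in each pair. In the Col cross the shares of GASA1 and GASA6 were 6.76% and 15.6%.

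Cold and dehydration genes had a median of 1.04%, with 13 of 18 loci below the limit and 0 above. KIN2, a cold-induced hydrophilic protein gene, had 0.190 RPKM of A. arenosa and 585 RPKM of A. thaliana (0.0324%), and RD22, a dehydration-induced gene, had 5.79 RPKM of A. arenosa and 504 RPKM of A. thaliana (1.14%). The class had medians of 0.845% in C24 hybrids and 0.482% in Col hybrids. Antioxidant enzymes had a median of 1.98% over 26 loci (13 below and 3 above). The copper/zinc superoxide dismutase gene CSD2 had 2.98 RPKM of A. arenosa and 536 RPKM of A. thaliana (0.553%) and DHAR1, which recycles ascorbate, had 0.0812%, but the catalase genes CAT1 and CAT2 had 14.4% and 18.03%.

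Among regulators, genes with a B-box zinc finger, many of which act in light signalling and flowering, had a median of 1.57% over 24 loci (13 below and 2 above, 6 near 0). COL3 and COL4, relatives of the flowering gene CONSTANS, had 1.51% and 0.898% at totals of 185 and 184 RPKM. Loci with an integrase-type DNA-binding domain, mostly ethylene response factors, had a median of 2.08% over 62 loci, with 29 below, 11 above and 20 near 0. RAP2.4, a member of the factor family, had 1.45 RPKM of A. arenosa and 63.9 RPKM of A. thaliana (2.22%), whereas AT4G16750 had 1.66 RPKM of A. arenosa and 1.47 RPKM of A. thaliana (53.1%).

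Small secreted peptides were mostly low, yet held a pollen pair at the other end. Of 211 genes on the list 27 were listed, with a median of 0.468%, 17 below, 6 above and 13 near 0. The rapid alkalinization factor genes RALFL8 and RALFL9 had 70.7% and 75.5%, while LCR69, a defensin-like gene, had 1.47 RPKM of A. arenosa and 314 RPKM of A. thaliana (0.468%). RALFL8 and RALFL9 had 1.96 and 0.716 RPKM of A. thaliana, so both were listed only because of their A. arenosa allele. PSK4, a phytosulfokine precursor gene, was listed at 0 for A. arenosa beside 73.0 RPKM of A. thaliana. Without the loci near 0 the class median was 1.22 times the library median. The median of this class and that of the integrase-type factors (1.13 times the library median without such loci) thus rest on values that can be failed estimates.

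Medians of housekeeping classes lay within the 1.5-fold limits. Over all loci 22.9% were above the 2-fold limit and 27.0% below it. Against this, the ribosome, proteasome and TCA classes had few members below. Cytosolic ribosome proteins, 125 loci by annotated location, had a median of 4.58%, with 27 above and 9 below. The location also holds loci that are no ribosomal proteins, such as the storage protein gene VSP2 at 6.63%. The 37 listed proteasome genes had 5.58% (9 above and 2 below), with the ATPase subunit gene RPT2a at 22.1%. The list of TCA cycle enzymes had 4.39% over 18 loci, with 0 above and 1 below. Its members ran between 1.31% at LPD1, a lipoamide dehydrogenase gene, and 7.17% at PMDH1, a peroxisomal malate dehydrogenase gene. The list thus also holds related enzymes outside the cycle, and this range is not that of the cycle alone.

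Respiratory chain subunits had a median of 3.85% over 48 loci (8 above and 10 below) and a few far outliers. The complex I subunit gene AT2G33220, a GRIM-19 homolog, had 47.2 RPKM of A. arenosa and 58.0 RPKM of A. thaliana (44.9%), and AT1G76200, another complex I gene, had 87.4 and 137 RPKM (38.9%). AT3G10860, which encodes subunit 8 of the cytochrome b-c1 complex, had 76.55 RPKM of A. arenosa and 146 RPKM of A. thaliana (34.4%), whereas AT5G05370, listed under the same product name, had A. arenosa at 0 beside 44.1 RPKM of A. thaliana. The 2 loci may exchange reads as copies, and their split is uncertain. Clock genes (3.28%), microRNA pathway genes (3.55%), RNA-directed DNA methylation genes (4.38%) and Polycomb genes (5.48%) lay within the 1.5-fold limits. So did carpel and fruit identity genes (4.74%) and flavonoid genes (2.88%), and in the Col cross the last 2 had 8.65% and 10.7%.

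Members of these central classes still reached high shares. HYL1, a double-stranded RNA-binding partner of the microRNA processing enzyme, had 3.76 RPKM of A. arenosa and 5.22 RPKM of A. thaliana (41.8%), and TT8, a seed coat pigment regulator, had 4.73 and 10.4 RPKM (31.4%). TT8 was the highest of the 3 seed coat markers listed in the Ler cross, whose median was 3.04%. TTG2 was listed at 0 for A. arenosa in the Ler cross, and had a share near 0 in C24 hybrids and 31.4% in Col hybrids. SEP1, a floral MADS-box gene, had 12.6 RPKM of A. arenosa and 34.5 RPKM of A. thaliana (26.7%). ER, the receptor kinase gene ERECTA that is mutated in the Ler ecotype, had 0.607 RPKM of A. arenosa and 33.7 RPKM of A. thaliana (1.77%), with 7.26% in C24 hybrids and 6.82% in Col hybrids.

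Imprinted genes, which endosperm expresses from 1 parent's copy, were mostly under the listing level. Of 13 genes grouped here as maternally expressed 4 were listed, with shares of 28.4% at HDG9, 21.005% at Fh5, 1.78% at DME and near 0 at CDC48B. Whether each of them, DME included, is itself imprinted was not tested. The list counts among those that departed upward, but it rests on these 4 loci, on both sides of the median. Over all transcripts it turned round. Of 12 genes known for paternal expression 2 were listed, VIM5 at 51.5% and NRPD1A, the largest subunit gene of RNA polymerase IV, at 8.52%. VIM5 and Fh5 had 1.57 and 1.60 RPKM of A. thaliana, so they were listed only because of their A. arenosa allele. Of the CYP78A family, P450 genes that promote organ growth, 1 of 6 was listed, CYP78A5, at 55.1%. Endosperm markers were not listed, so the tissue behind these shares was not tested.

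The highest A. arenosa levels belonged to antenna genes. LHCB2.1 had 420 RPKM of A. arenosa and 2601 RPKM of A. thaliana (13.9%), CAB2 had 295 and 4718 RPKM (5.89%), and LHB1B2 had 246 and 6094 RPKM (3.88%). LHCB6 had 272 RPKM of A. arenosa and 2090 RPKM of A. thaliana, a share of 11.5%, with 11.04% in C24 hybrids and 1.17% in Col hybrids. LHCA4, an antenna gene of photosystem I, had 5.16% in the Ler cross, 21.5% in C24 hybrids and 16.0% in Col hybrids. Outside photosynthesis, the hydrolase family gene AT5G47350 had 331 RPKM of A. arenosa and 870 RPKM of A. thaliana (27.6%), and AT1G67105, with no product name, had 227 RPKM of A. arenosa and 287 RPKM of A. thaliana (44.2%).

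Among loci of at least 50 RPKM, several had a high share in more than 1 cross. AT1G67430, a cytosolic ribosomal protein gene, had 184 RPKM of A. arenosa and 387 RPKM of A. thaliana (32.2%), with 34.7% in C24 hybrids and 4.74% in Col hybrids. CLP2, a plastid protease subunit gene, had 31.3% in the Ler cross, 13.8% in C24 hybrids and 21.04% in Col hybrids. AT5G21090, a leucine-rich repeat protein gene, had 30.6%, 33.0% and 25.4% in the Ler, C24 and Col crosses. Of the 10 loci with the highest share at this level, 8 were listed in the C24 cross, where 7 lay above the limit and 1 below, and 9 in the Col cross, where 6 lay above and 2 below.

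At the opposite end stood abundant loci with A. arenosa near 0. The highest was OHP, a one-helix protein of the light-harvesting superfamily, with 236 RPKM of A. thaliana. SAH7, a pollen-allergen-like wall protein gene, had 167 RPKM, and the late embryogenesis abundant gene AT2G23120 had 120 RPKM of A. thaliana. YCF37, a photosystem I assembly protein gene, had 147 RPKM of A. thaliana and reached a share of 8.52% in the C24 cross. The other 9 of the 10 most abundant such loci were below the limit in the C24 cross and all 10 were in the Col cross. Among all 1828 loci near 0, 452 of the 1624 listed in the C24 cross (27.8%) were near 0 there, as were 480 of the 1649 listed in the Col cross (29.1%), and 174 of 1556 were so in both. Over all loci of those crosses, 9.13% were near 0 in C24 hybrids and 10.8% in Col hybrids.

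Level and transcript length moved with the share. In the decile of loci with the lowest totals the median share was 6.23%, and it was 3.08% in the decile with the highest. The lowest decile was also the most scattered, with 42.3% of loci above the 2-fold limit, 31.1% below it and 23.7% near 0. By coding length in the TAIR10.1 annotation, the shortest decile had a median of 3.07% and the longest one of 5.10%. The near-0 percentage was 18.1 in the shortest decile and 3.06 in the longest. The same order by length was seen at like levels. Within the decile of lowest totals the longest 25% of loci had a median of 7.65% and the shortest 25% 4.57%, and within the decile of highest totals 3.94% and 3.02%. The longest 25% had the higher median in each of the 10 deciles of total. The part of length in the class values above was not tested.

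**Figure D5:**
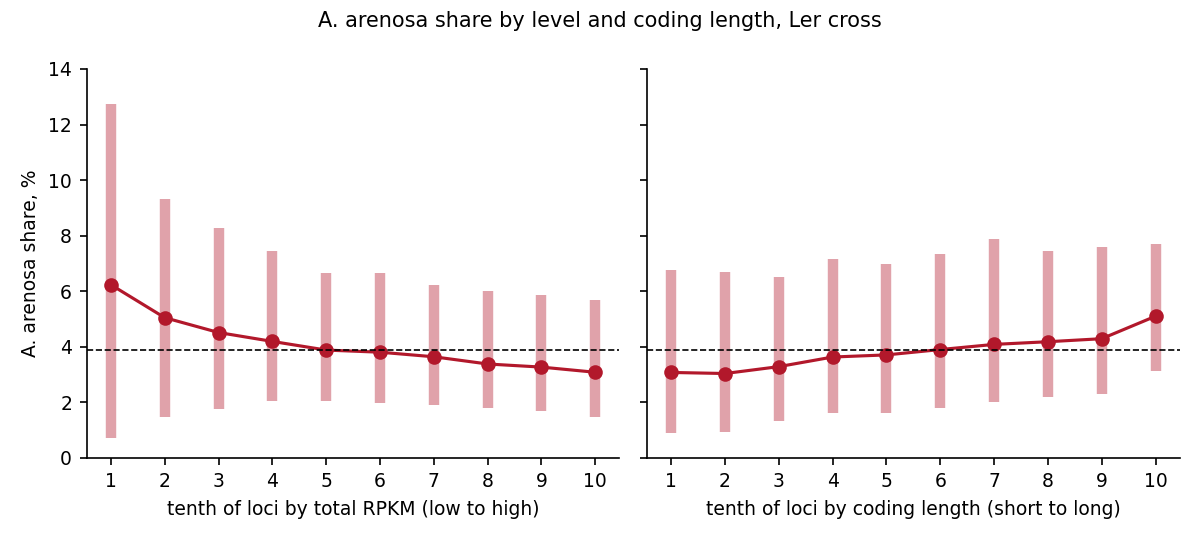
Median A. arenosa share of the Ler cross in percent (points) with quartiles (vertical bars) by deciles of loci, ordered by total RPKM on the left and by coding length on the right, with the library median dashed. The median runs down to 3.08% in the decile of highest totals and up to 5.10% in the decile of longest coding sequences.

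The annotation notes give the number of plant structures in which a locus is expressed, and the median share had no steady order over it. It was 4.96% for 1 to 5 structures, 6.35% for 6 to 10, 5.56% for 11 to 15, 4.34% for 16 to 20, 3.31% for 21 or 22, 3.81% for 23 or 24 and 3.92% for 25 to 40. The median total was 5.42 RPKM in the group with the highest share and 14.9 RPKM in the group with the lowest. Loci annotated as non-coding RNA had 7.66% (30 loci), pseudogenes had 7.23% (31 loci) and long non-coding RNA had 2.42% (87 loci). Chromosome medians ran between 3.72% and 4.04%. In 311 windows of 101 neighbouring loci the median ran between 2.22% (AT2G32960 to AT2G34620) and 7.56% (AT1G60995 to AT1G62850), none beyond 2-fold of the library median. The highest window held 5 resistance loci and had 7.002% without them. At 3343 loci with more than 1 transcript, the share differed between transcripts by a median of 0.151 percentage points, by over 10 points at 5 loci and by at least 2-fold at 236 loci.

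Somewhat over 50% of the called loci were called alike in another cross. Of the Ler cross's loci above the limit, 56.1% were also above it in C24 hybrids, against 20.7% of all loci listed in both crosses. The overlap was 58.7% of the loci above the limit in C24 hybrids. With Col hybrids it was 58.7% of the Ler cross's loci, against 24.2% of all, and 53.1% of the loci of Col hybrids. Below the limit, 54.7% of the Ler cross's loci were also below in C24 hybrids, against 26.1% of all, and 52.3% in Col hybrids, against 27.8% of all. These are 56.3% and 50.4% of the loci below the limit in C24 and Col hybrids. Opposite calls were seen in C24 hybrids for 6.49% of the loci above the limit, where 26.1% of all loci were below, and for 9.16% of those below, where 20.7% of all were above. In Col hybrids they were seen for 10.5% of the loci above, where 27.8% of all were below, and for 10.7% of those below, where 24.2% of all were above. Over loci, the Spearman rank correlation of the share was 0.552 with the C24 cross (15008 loci) and 0.482 with the Col cross (15176 loci). The points share the A. arenosa line, the annotation and the mapping, and loci are not replicates, so these are descriptions. Called alike in all 3 crosses were 39.8% of the Ler cross's loci above the limit and 35.9% of those below, among 14664 loci listed in every cross.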

How the data were processed

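Poly(A) RNA-seq of siliques gave 1 library per group, per the labels' protocols. The authors deposited RPKM per transcript for the total, the A. thaliana and the A. arenosa allele, per the file headers, whose letters T and A were read as these species. Build TAIR 9 is given, per the submitters' processing notes. How reads were mapped, counted and assigned to an allele, and the depth, were not given in the sources used here, so no interval or detection floor is given. Whether mapping to TAIR 9 lost A. arenosa reads was not tested, and RPKM depends on the abundant transcripts of its own library. Both alleles summed to the total within 0.000475% of it.

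Per locus (first 9 characters of the transcript code) the transcript with the highest total was kept. The Col table lost 4 header lines that recur inside it and 41 transcripts at 0 in both species. Names, products, domains, locations and coding lengths came from the RefSeq annotation TAIR10.1, which matched 15847 of 15935 loci (7319 with a symbol). No coordinates or sequences were used. Calls were rules of size (2-fold for loci, 1.5-fold for class medians), and the calls were run on simulated data. The simulated shares spread less than the real ones, held no values near 0 and were shifted by more than the limit. That run thus shows only that the rule was applied as stated, not how reliable the calls are. The members and gene lists were chosen with earlier results of these data known, and 70 list entries matched no single locus. Other genes that share a symbol with a list member were removed from the lists after products were read. Named loci were those of at least 80%, the 10 highest in A. arenosa RPKM, the 10 highest shares at 50 RPKM or more, the 10 highest totals near 0, and up to 6 members of a class (2 each of highest total, highest share and lowest share). Alternatives were all transcripts, the lowest isoform, totals of at least 5 or 10 RPKM, log2 ratios with pseudocounts of 0.1 and 1, 4-fold calls, loci near 0 left out, and comparison within deciles of total. Python 3.11.15, numpy 2.4.6, pandas 2.3.3 and matplotlib 3.10.9 were used.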

Additional observations from a re-analysis of the deposited data

Results flagged for a closer look

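Among the class medians and the loci named for their share or level over the whole library, not as members of a class, 1 class and 3 loci lay past a limit on 1 side of the median in the Ler cross and past it on the other side in another cross. None of these differences was tested, since each cross is 1 library. Plant peroxidase genes, by protein domain, had a median share of 2.30% in the Ler cross, against 8.996% in Col hybrids. The antenna gene LHCB6 had 11.5% in the Ler cross, against 1.17% in Col hybrids. AT3G06125, which has no product name, had 38.1% in the Ler cross and was listed at 0 in Col hybrids. AT5G38980, of unknown product, had 31.7% in the Ler cross, was listed at 0 in C24 hybrids and had 9.87e-05% in Col hybrids. A value listed at or near 0 can be a failed estimate. Loci named only as members of a class are not in this count, and several of them also lay past opposite limits. Among them, RGL1 had 0.508% in the Ler cross, against 14.2% in C24 hybrids. COL4 had 0.898%, against 10.02% in Col hybrids, and FNR1 had 14.5%, against 2.08% in Col hybrids.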

How the results depend on the processing

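No paired analysis was possible because each group holds 1 library, and no replicate could be left out. Depth is unknown. Of the gene lists that departed, the pollen list among the 7 above and 11 of the 17 below stayed past the 1.5-fold limit under all 9 alternatives. Among protein domains 4 of 34 above and 7 of 46 below did so, and among cell locations 0 of 1 and 3 of 5. The other departures thus depend on at least 1 setting, and the cause was not tested.

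Loci above the median numbered 1911 at totals of at least 10 RPKM and 1109 with 4-fold calls, and loci below it 2243 and 2694. With a pseudocount of 1, 32 lists lay below in place of 17, 15 locations below in place of 5 and 0 above in place of 1. With a pseudocount of 0.1, 30 domains lay below in place of 46 and 0 locations above. Without loci near 0, 24 domains lay below and 0 locations above. Locations above numbered 2 at totals of at least 5 RPKM, 2 at 10 RPKM and 2 within deciles of total, where 3 lay below. Loci of at least 80% became 64 at a limit of 50%, 11 at 90% and 11 at totals of at least 5 RPKM.

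Among the 47 classes described, the median over the library median turned round with a pseudocount of 1 for the EF-Tu domain (0.968), the integrase-type domain (1.26) and secondary wall genes (1.22). Without loci near 0 it turned for the integrase-type domain (1.13), secondary wall genes (1.28) and peptides (1.22). Expansins turned with a pseudocount of 1 (0.9315) and at totals of at least 5 (0.893) and 10 RPKM (0.929). Invertases turned to 0.581 at totals of at least 10 RPKM and the maternally expressed list to 0.476 over all transcripts.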
